A study of Oryza sativa Japonica Group with 8 samples.

Results

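Proline is an osmolyte that plants build up when water runs short, and 6 rice genes for its synthesis and breakdown were followed through 3 days without water. They were taken by gene identifier as P5CS1 (Os05g0455500), P5CS2 (Os01g0848200), P5CR (Os01g0948400), OAT (Os03g0643300), ProDH (Os10g0550900) and P5CDH (Os05g0536400). All 6 were among the 27626 genes found in both deposited tables, and all 6 passed an expression filter (average FPKM of 1 or more in both tables) that 18113 genes passed. FPKM is a fragment count scaled to transcript length and library size, so a level per length, and it was summed here over the transcripts of a gene.

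The samples were leaves of 5-week-old soil-grown japonica rice, variety Ilmi, from plants left without water for 1, 2 or 3 days and from well-watered plants. Drought started from a soil water content near 75%, and no transgene or mutation is named in the labels. Each treatment was sequenced as 1 total RNA library and 1 mRNA library, 8 libraries in all, with no replicate. No p-value is therefore given. The labels do not say whether both library kinds came from the same RNA, or how many plants went into a library (pots held 3), so likeness between the kinds may be technical.

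In plants, P5C synthase (P5CS) turns glutamate into glutamate semialdehyde, which closes to pyrroline-5-carboxylate (P5C), and P5C reductase (P5CR) makes proline from it. Proline dehydrogenase (ProDH) in mitochondria turns proline back into P5C, and P5C dehydrogenase (P5CDH) carries P5C on to glutamate. Ornithine aminotransferase (OAT) feeds the same pool from ornithine, a product of arginine breakdown. Losing water usually raises P5CS transcripts in plants, and ProDH is usually held down until water returns.

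The file descriptions fit these roles. Both synthases, P5CR and P5CDH are described by their enzyme names, ProDH as a proline oxidase domain protein, and the shorter OAT transcript as an ornithine-oxo-acid transaminase, while the longer OAT transcript is described only as similar to AER123Wp. On the IRGSP-1.0 build the genes lie on 4 chromosomes. P5CS2 spans chromosome 1 from 36430978 to 36440843 and P5CR chromosome 1 from 41718639 to 41721571. OAT spans chromosome 3 from 24810090 to 24818067. P5CS1 spans chromosome 5 from 22374029 to 22380820 and P5CDH chromosome 5 from 26634885 to 26640861. ProDH spans chromosome 10 from 21618211 to 21620554.

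The FPKM sum of a library was 678548 to 755487. The most frequent value of FPKM times length in a library was taken to stand for 1 fragment, which is an assumption. Only 9.91% to 13.1% of a library's low values lay within 1% of it. Under that assumption a library held between 15.7 and 23.6 M fragments. The thinnest member value, P5CS2 in the well-watered total RNA library, would then rest on 187 fragments. Its 3.84 FPKM would have 95% exact Poisson limits of 3.31 and 4.43, which cover counting error only. Leaf markers were present but fell with drought: the summed FPKM of 6 Rubisco small subunit genes was 22565 in total RNA before drought and 12953, 3787 and 150 on days 1, 2 and 3, with 17939, 10933, 2574 and 105 in mRNA. For 15 chlorophyll a/b-binding protein genes the sums were 33012, 18618, 6970 and 765 in total RNA, with 31380, 19013, 6456 and 776 in mRNA. Of 13 glutelin and prolamin genes, the seed storage markers, 3 to 5 were at 0 in each total RNA library, where the sum was 29.4 to 59.0 FPKM, and in mRNA, which lists 9 of them, 1 to 3 were at 0 and the sum was 43.2 to 126. The part of these marker shifts in the results on proline genes was not tested, and in bulk leaf RNA fewer cells of a type and less RNA per cell cannot be told apart.

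Transcripts of P5CS1 and OAT were higher on each of the 3 drought days, P5CS2 was higher on day 3, and ProDH was lower on days 2 and 3. P5CR and P5CDH passed the size rule on no day. The rule takes a gene as higher where the log2 ratio of FPKM + 1, drought day over well-watered, reaches 1 in both library kinds, and as lower where it reaches -1 in both. On day 1, 2 of 6 members were higher, against 6.93% of all genes, and 0 were lower, against 2.46%. On day 2, 2 were higher and 1 was lower, against 14.5% and 11.1%. On day 3, 3 were higher and 1 was lower, against 18.2% and 25.9%. The background split moved with scaling: with median-ratio scaling 891 genes were higher and 677 lower on day 1, in place of 1256 and 446, and 4408 and 3488 on day 3, in place of 3290 and 4699. The members' median log2 ratio was 0.56, 0.83 and 1.85 on days 1, 2 and 3 in total RNA, where the median over all genes was 0.23, 0.11 and -0.24. In mRNA it was 0.56, 0.62 and 1.51, beside 0.17, 0.06 and -0.39 over all genes. The 3 days share the well-watered library of their kind, so they are not independent of each other.

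**Figure D1:**
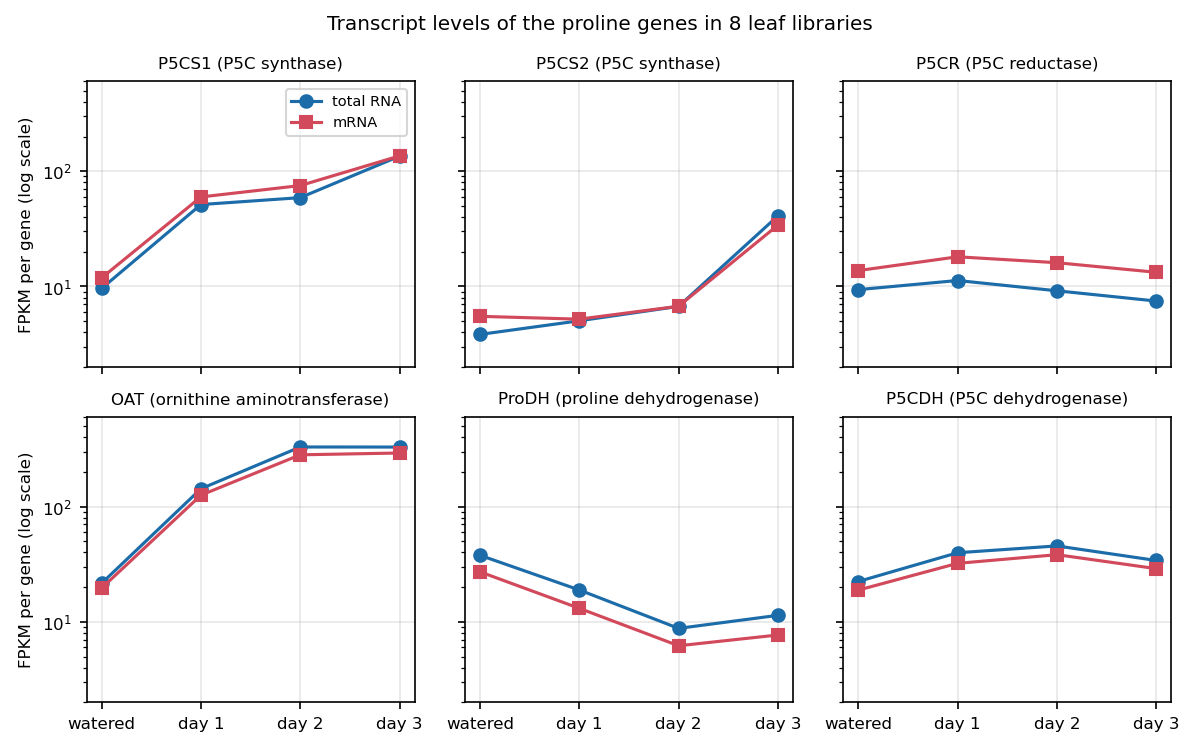
FPKM per gene (log scale) of the 6 proline genes in the well-watered library and on drought days 1 to 3; circles are total RNA, squares mRNA, and each point is 1 library with no error bar. P5CS1 and OAT stand highest on days 2 and 3, P5CS2 is near 5 FPKM until day 1 and jumps on day 3, and ProDH is lowest on day 2.

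P5CS1 catalyses the step that commits glutamate to proline. In total RNA the well-watered plants had 9.61 FPKM of it, and days 1, 2 and 3 without water had 51.4, 59.0 and 135 FPKM. The same 4 stages in mRNA had 11.9, 59.8, 75.1 and 136 FPKM. Every drought library was thus above both well-watered ones, with a step on day 1 and a further one on day 3. The fold over well-watered was 5.35 (total RNA) and 5.04 (mRNA) after 1 day, 6.14 and 6.33 after 2 days, and 14.1 and 11.4 after 3 days. From day 1 to day 2 the level moved by a log2 ratio of only 0.20 and 0.32, and from day 2 to day 3 by 1.18 and 0.85. In total RNA, P5CS1 ranked 877th of 18113 genes on day 3, against 8783rd before drought. On day 1 only 1.16% (total RNA) and 1.44% (mRNA) of all genes had a higher ratio.

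P5CS2 encodes the second P5C synthase. Total RNA held 3.84 FPKM of it before drought and 5.04, 6.72 and 41.0 FPKM over the 3 days of drought. The mRNA libraries, in the same order, held 5.51, 5.21, 6.74 and 34.1 FPKM. Until day 2 the values of the libraries lay between 3.84 and 6.74 FPKM, and only the day 3 libraries stood apart. The day 3 fold was 10.7 in total RNA and 6.19 in mRNA. The day 1 log2 ratio had opposite signs in the kinds, at 0.32 and -0.07, and neither reached the rule. The step from day 2 to day 3 was 2.44 and 2.18 in log2, against 1.18 and 0.85 for P5CS1. In the summed FPKM of both synthases, P5CS2 made up 28.5%, 8.93%, 10.2% and 23.3% in total RNA (well-watered, days 1, 2 and 3) and 31.7%, 8.01%, 8.24% and 20.1% in mRNA. P5CS1 was the more abundant synthase in all 8 libraries.

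P5CR makes proline from P5C whichever route supplied it. From well-watered to day 3 it measured 9.39, 11.3, 9.17 and 7.48 FPKM in total RNA, while the mRNA libraries had 13.7, 18.1, 16.1 and 13.3 FPKM. The largest log2 ratio to well-watered in either kind was 0.37, on day 1 in mRNA. On day 3 the ratios were -0.29 and -0.05, and their sign changed under other scalings (0.04 and 0.49 with median-ratio scaling, 0.07 and 0.41 with the deposited quantile-normalized values), so no direction is given. Next to the 14.1-fold and 11.4-fold of P5CS1 on day 3, the last enzyme of the route stood at 0.80 and 0.97 times its well-watered level.

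OAT was the most abundant member in every drought library. Total RNA of well-watered leaves held 21.6 FPKM, and the 3 drought days 143, 329 and 328 FPKM. The mRNA libraries held 19.6 FPKM before drought and then 126, 281 and 291 FPKM. Its climb ended on day 2, with log2 steps of -0.002 and 0.05 to day 3, whereas both synthases were highest on day 3. It was 6.62-fold (total RNA) and 6.41-fold (mRNA) over well-watered after 1 day, then 15.2-fold and 14.4-fold, and at the end 15.2-fold and 14.9-fold. On day 2 it was the 250th most abundant of 18113 genes in total RNA and the 333rd in mRNA. OAT over the summed synthases was 1.60, 2.53, 5.00 and 1.86 in total RNA, with 1.13, 1.93, 3.44 and 1.72 in mRNA, highest on day 2.

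ProDH opens proline breakdown. Before drought it was the most abundant of the 6 genes in either kind, with 37.8 FPKM in total RNA and 27.2 FPKM in mRNA. Drought days 1, 2 and 3 had 18.9, 8.78 and 11.4 FPKM in total RNA, and 13.1, 6.20 and 7.69 FPKM in mRNA. Every drought library lay below both well-watered ones, with the lowest level on day 2. Day 2 gave log2 ratios of -1.99 and -1.97, and day 3 gave -1.65 and -1.70. Those of day 1 were -0.963 and -0.998, just short of the rule, and under median-ratio scaling (-1.19 and -1.17) and quantile normalization (-1.34 and -1.32) they passed it. On day 1 only 3.33% and 3.36% of all genes had a lower ratio, and on day 3, when many leaf genes were lower, 14.8% and 18.1% did.

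P5CDH, the enzyme after ProDH, did not follow it. From well-watered to day 3, total RNA had 22.4, 39.8, 45.6 and 34.1 FPKM, and the mRNA libraries had 18.8, 32.2, 38.2 and 28.9 FPKM. The drought libraries were all above the well-watered ones, in FPKM most of all on day 2. There the fold was 2.04 and 2.03, but with 1 FPKM added the log2 ratios of 0.99 and 0.98 stayed under the rule, and with 0.1 added they passed it. The day 3 ratios were 0.58 and 0.59. With median-ratio scaling day 3 was the higher, at 0.94 and 1.14 against 0.93 and 0.97 on day 2. P5CDH over ProDH was 0.59, 2.10, 5.19 and 2.99 in total RNA, with 0.69, 2.45, 6.17 and 3.76 in mRNA, so the order of both breakdown enzymes turned round on day 1.

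**Figure D2:**
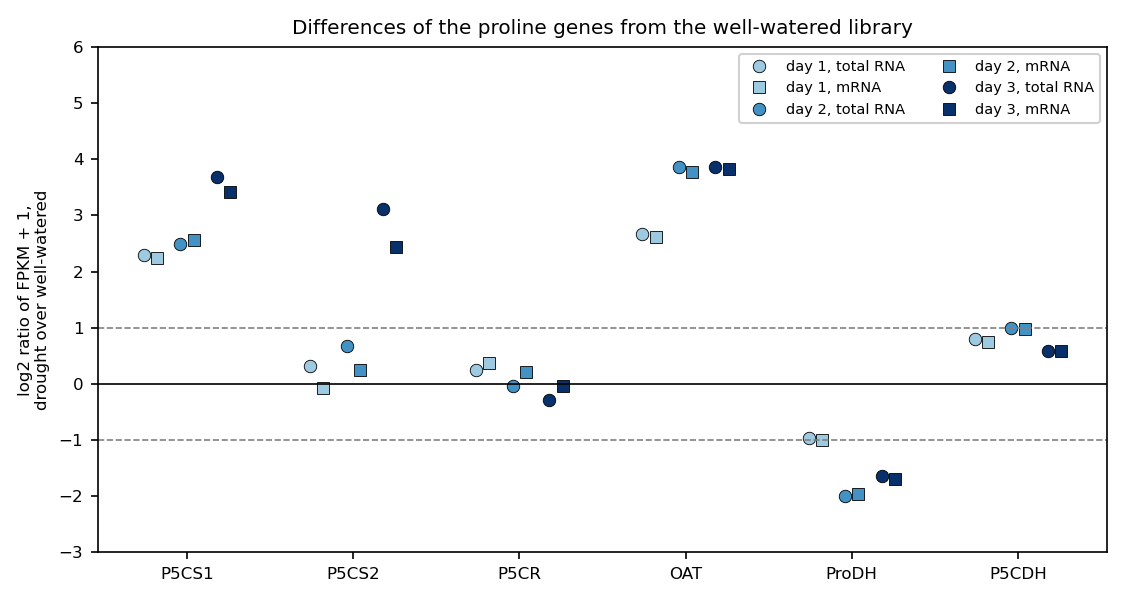
Log2 ratio of FPKM + 1, drought day over well-watered, for each gene; shade gives the day, circles are total RNA and squares mRNA, and dashed lines mark the size rule of 1 and -1. P5CS1 and OAT lie above 2 on each day, P5CS2 only on day 3, ProDH reaches -1.99 on day 2, and P5CR and P5CDH stay between the lines.

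P5CS1 and ProDH exchanged places within the first day. P5CS1 FPKM divided by ProDH FPKM in the same library, both per length, was 0.25 in total RNA before drought and 2.72, 6.72 and 11.9 on days 1, 2 and 3. In mRNA it was 0.44, 4.56, 12.1 and 17.7. The ratio was above 1 in all 6 drought libraries and below 1 in both well-watered ones. With both synthases summed it was 0.36, 2.98, 7.48 and 15.5 in total RNA, with 0.64, 4.96, 13.2 and 22.1 in mRNA. The increase from day 2 to day 3 came with higher P5CS1, since ProDH was itself slightly higher on day 3 than on day 2 (log2 steps of 0.34 and 0.27).

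**Figure D3:**
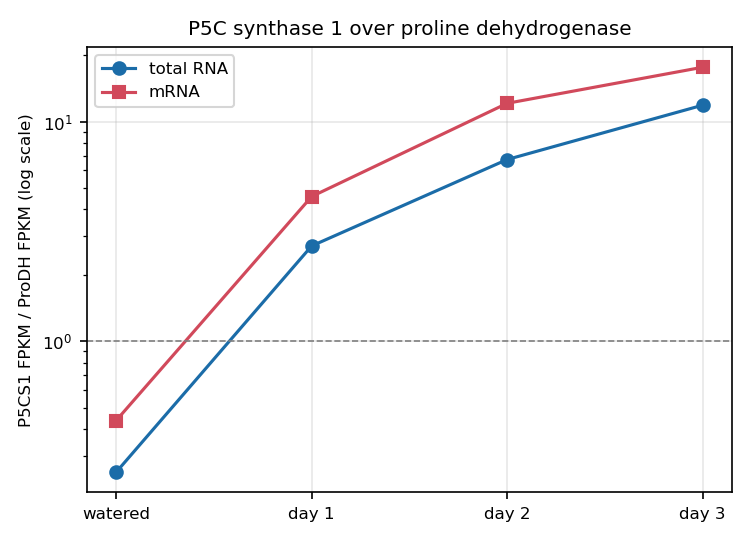
P5CS1 FPKM divided by ProDH FPKM within each library (log scale), for the well-watered library and drought days 1 to 3; circles are total RNA, squares mRNA, and the dashed line marks equal levels. Both lines cross 1 between the well-watered library and day 1 and end at 11.9 and 17.7 on day 3.

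The courses of the members can be ordered by likeness, taken as the root mean square difference of the 6 log2 ratios (3 days in both kinds). P5CS1 and OAT were close at 0.80, P5CR and P5CDH at 0.74, and the synthases differed from each other by 1.79. OAT and ProDH were farthest apart at 5.08. The library kinds differed little for these genes. Total RNA and mRNA ratios of a member were on average 0.12, 0.14 and 0.22 apart on days 1, 2 and 3, beside a median of 0.15, 0.16 and 0.24 over all genes. The largest member difference was 0.69, for P5CS2 on day 3. In level, P5CR was lower in total RNA than in mRNA in each treatment, by log2 ratios of -0.50 to -0.75, while ProDH was higher in total RNA by 0.44 to 0.51. The median over all genes was -0.05 on day 3 and -0.14 in the well-watered libraries.

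P5CS1 and OAT each have a long and a short transcript in the tables, and the long one, Os05t0455500-02 (2765 bases) or Os03t0643300-02 (1813 bases), held 93.4% to 99.6% of P5CS1 FPKM and 97.4% to 99.4% of OAT FPKM. ProDH and P5CDH have 1 transcript each. P5CS2 has Os01t0848200-01 (2738 bases) and Os01t0848200-02 (3385 bases), and the form that held the reads changed between libraries. The first form held 92.5% and 93.0% of P5CS2 FPKM in the well-watered and day 1 total RNA libraries, 5.12% on day 2 and 95.5% on day 3. In mRNA it held 96.7%, 95.2%, 1.73% and 0.11%. The kinds therefore gave opposite forms on day 3: 39.2 FPKM for the first and 1.84 FPKM for the second in total RNA, but 0.04 and 34.1 FPKM in mRNA. The gene sums of 41.0 and 34.1 FPKM were close, so the higher call for P5CS2 rests on the gene and not on either form. The file coordinates place 2 other genes over P5CS2, the noncoding Os01g0848250 at no more than 0.15 FPKM in any library and the pentatricopeptide repeat gene Os01g0848300, which had 1.21 and 0.90 FPKM on day 3 and 3.23 and 3.35 FPKM in well-watered leaves (total RNA and mRNA), opposite in course to P5CS2.

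P5CR was also divided between forms. Os01t0948400-01 (1206 bases) and Os01t0948400-02 (1319 bases) share most of their span. The shorter form held 51.8%, 0%, 49.8% and 45.1% of P5CR FPKM in total RNA, with 16.5%, 24.0%, 37.1% and 33.5% in mRNA, from well-watered to day 3. It is listed at 0 in the day 1 total RNA library, where the longer form stood at 11.3 FPKM. The form shares thus differed between the kinds at each stage, by the least on day 3.

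**Figure D4:**
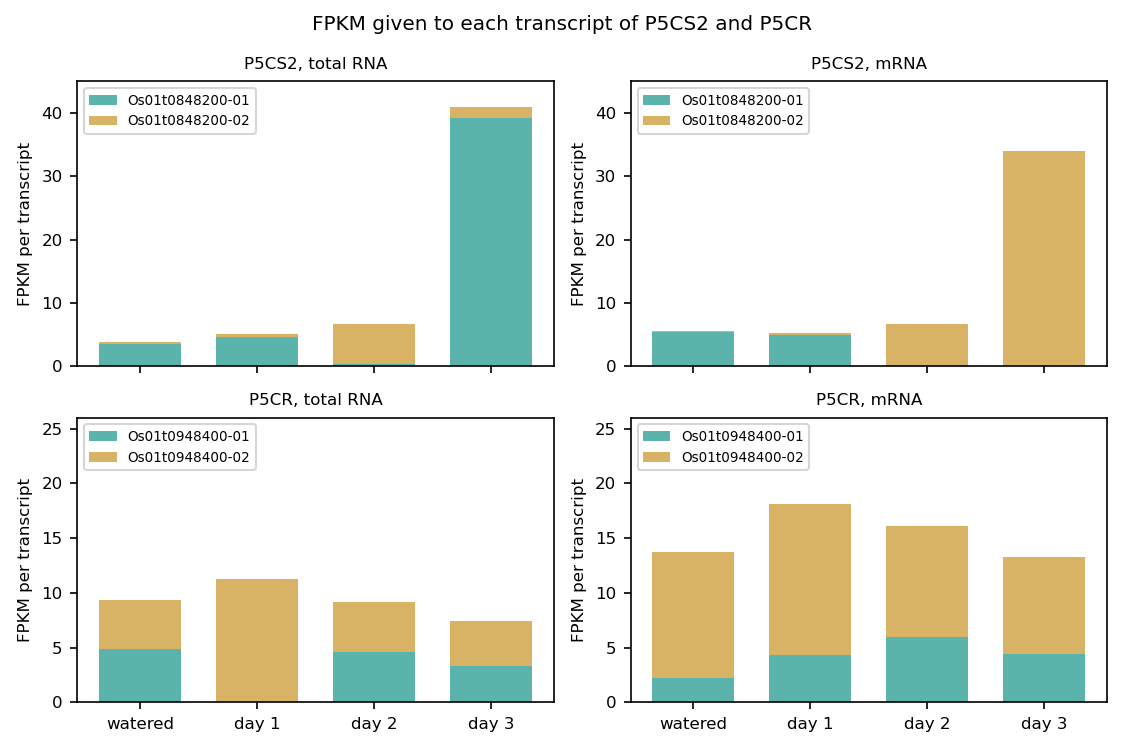
FPKM of each transcript of P5CS2 (top) and P5CR (bottom), stacked to the gene sum, in total RNA (left) and mRNA (right), from the well-watered library to drought day 3. On day 3 nearly all P5CS2 FPKM is on Os01t0848200-01 in total RNA and on Os01t0848200-02 in mRNA, and the shorter P5CR form is at 0 in the day 1 total RNA library.

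Genes next to the proline route were taken by words in the file descriptions. Over 10 lists, 70 genes that are not members passed the expression filter. Day 1 had 7 higher and 1 lower, day 2 had 13 higher and 9 lower, and day 3 had 17 higher and 20 lower. Over all genes, 6.93% were higher and 2.46% lower on day 1, and 14.5% and 11.1% on day 2. On day 3 the shares were 18.2% higher and 25.9% lower. These shares are also the background for the counts of the single lists that follow. The day 3 median ratios of the 70 genes, -0.23 and -0.36, were close to the -0.24 and -0.39 of all genes. Single lists are short, and many of their counts moved by 1 or more genes under other settings.

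Arginine breakdown supplies the ornithine that OAT uses. That list had 4 measured genes, with 1 higher on days 1 and 2. By day 3 the count was 2 higher and 1 lower. The words of the list also took in arginine decarboxylase and urease accessory genes, so its counts do not measure ornithine supply. The second gene higher on day 3, named after its values were seen, was the arginine decarboxylase gene Os06g0131300. It was at 57.7 and 59.0 FPKM against 16.1 and 27.9 FPKM when watered. Its call was lost with a pseudocount of 5 and with quantile-normalized values. The gene higher from day 1 was arginase (Os04g0106300), which splits arginine into ornithine and urea. Its course was 12.2, 58.2, 116 and 127 FPKM in total RNA, with 19.4, 83.6, 159 and 167 FPKM in mRNA. As with OAT before any other scaling, little was added after day 2. The log2 ratios were then 3.15 and 2.98, and a day later 3.29 and 3.04. The urease accessory protein gene Os05g0565200, whose product helps to make active urease, was lower on day 3 at -2.01 and -2.24. Of 8 genes for arginine and ornithine synthesis, day 1 called 0, day 2 called 1 higher and 1 lower, and day 3 called 2, both lower. The lower pair was Os03g0279400, an arginine biosynthesis bifunctional protein gene at -2.73 and -2.92, and Os01g0570700, a carbamoyl-phosphate synthetase large subunit gene with ratios of -1.10 and -1.85, though not past the rule with median-ratio scaling or 5 FPKM added. Besides the members, the list of proline enzymes by description held 2 acetylornithine aminotransferase genes, both already among the 8 above. Of these 2, 0 were called on any day in both kinds. Os05g0129100 was at 0.08 and 0.03 on day 3 and Os07g0461900 at -0.81 and -1.16.

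Glutamate is the other source of proline. Of 13 genes in the list of glutamine and glutamate synthesis, day 1 had 2 higher and 0 lower, day 2 had 3 higher and 4 lower, and day 3 had 3 higher and 5 lower. The words of this list also took in acetylglutamate synthases, the bifunctional arginine gene and a folylpolyglutamate synthase gene. Chloroplast glutamine synthetase (Os04g0659100), which takes up ammonium in lit leaves, went through 618, 426, 169 and 12.7 FPKM in total RNA, with 973, 592, 200 and 10.5 FPKM in mRNA. A root isozyme gene of the same enzyme, Os03g0712800, was listed at 0 in both well-watered libraries and stood at 69.6 and 70.5 FPKM on day 3. Another root isozyme gene, Os03g0223400, was already at 16.1 and 24.5 FPKM when watered and reached 156 and 217 FPKM on day 3. The shoot isozyme gene Os02g0735200 was not called on any day. These 2 genes were also named after their values were seen. Named after their values were seen, ferredoxin-dependent glutamate synthase (Os07g0658400) was at 75.8 and 64.1 FPKM on day 3 against 1145 and 1288 FPKM when watered, and the NADH-dependent gene Os01g0682001 at 156 and 54.6 FPKM against 10.6 and 5.51 FPKM. The other NADH-dependent genes of the list did not share that course: Os05g0555600 was lower on day 3, at 8.44 and 5.87 FPKM against 35.2 and 38.5 FPKM, and Os04g0490000 was not called on any day, with 2.50 and 2.44 FPKM on day 3 against 0.777 and 1.305 FPKM. Over all genes, 14.5% were higher and 11.1% lower on day 2, and 18.2% and 25.9% on day 3, so calls in both directions are not particular to this list.

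Glutamate dehydrogenase and the GABA shunt compete for the same substrate or release it. Among 4 measured glutamate dehydrogenase genes, days 1 and 2 each had 1 higher, and day 3 had 2 higher and 1 lower. Os04g0543900 was at 6.43, 18.1, 30.6 and 82.2 FPKM in total RNA, although its day 1 call was lost under median-ratio scaling and with 5 FPKM added. Os02g0650900 was at 9.66 and 8.54 FPKM on day 3 against 0.46 and 0.32 FPKM when watered. Of 4 measured GABA shunt genes, 1 was higher on days 1 and 2 and 2 on day 3, and 0 were lower on any day. Both were glutamate decarboxylase genes, which make GABA from glutamate. Os03g0720300 stood at 16.4, 38.1, 74.8 and 225 FPKM in total RNA (not past the rule on day 1 with median-ratio scaling), and Os08g0465800 at 76.7, 123, 151 and 265 FPKM. The other 2 genes were named after their values were seen. Glutamate decarboxylase Os04g0447800 was not called on any day, with day 1 ratios of 0.52 (total RNA) and 2.01 (mRNA). GABA transaminase Os10g0213100 was at -1.04 and -0.90 on day 2. It passed as lower there with quantile-normalized values and with total RNA alone.

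Of 6 measured polyamine genes, which draw on arginine and ornithine, day 1 called 0, day 2 had 2 higher, and day 3 had 3 higher and 1 lower. The day 2 count was 0 with the deposited quantile-normalized values and 1 with a pseudocount of 5, and the lower call of day 3 was lost with a pseudocount of 5 and with median-ratio scaling. Spermidine synthase 3 (Os02g0254700) was at 448 and 445 FPKM on day 3 against 71.5 and 72.2 FPKM when watered. S-adenosylmethionine decarboxylase (Os02g0611200), which makes the donor for spermidine, had day 3 ratios of 2.34 and 2.19. Other genes for both enzymes, named after their values were seen, took other courses. The lower gene of day 3 was spermidine synthase 2 (Os07g0408700), at 19.0 and 15.2 FPKM against 42.1 and 38.7 FPKM when watered. The S-adenosylmethionine decarboxylase gene Os04g0498600 was not called on any day, with 388 and 484 FPKM on day 3. Of 7 dehydrogenase genes of the oxidative pentose phosphate route, a source of the NADPH that P5CS and P5CR use, day 1 called 0, day 2 had 2 lower, and day 3 had 1 higher and 3 lower. Os03g0412800, a glucose-6-phosphate dehydrogenase gene, was at -4.03 and -4.30 on day 3 and Os11g0484500, a 6-phosphogluconate dehydrogenase gene, at -1.92 and -2.43. The higher gene, named after its values were seen, was the cytosolic 6-phosphogluconate dehydrogenase gene Os06g0111500. It was at 328 and 254 FPKM on day 3 against 121 and 96.5 FPKM when watered, and its call was lost with quantile-normalized values. The 1 gene described as a proline transporter, Os01g0621200, did not pass the filter. Its values were 0.06, 0.19, 0.73 and 0.55 FPKM in total RNA, with 0.20, 0.63, 1.42 and 1.77 FPKM in mRNA.

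**Figure D5:**
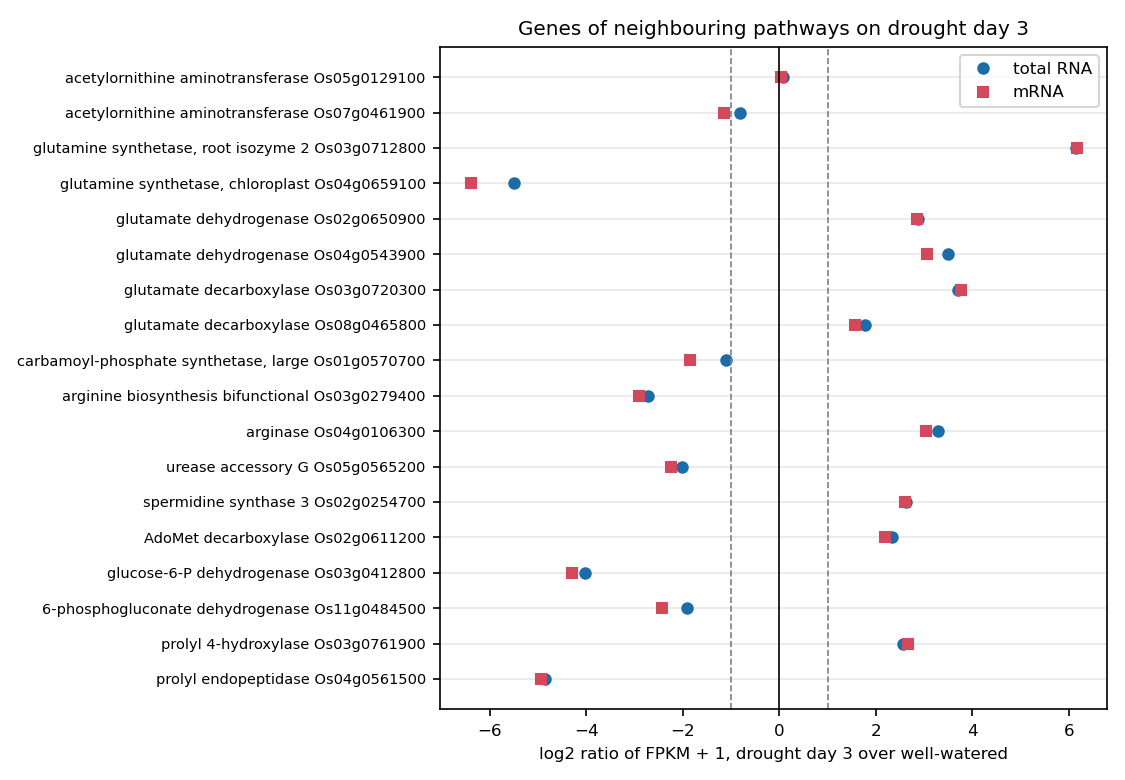
Log2 ratio of FPKM + 1, drought day 3 over well-watered, for the 2 genes of each neighbouring list with the largest day 3 difference (the proline transporter list had none past the filter, and a gene in several lists is shown once); circles are total RNA, squares mRNA, dashed lines mark 1 and -1. Arginase, glutamate decarboxylase and root-type glutamine synthetase lie on the higher side, and chloroplast glutamine synthetase and prolyl endopeptidase on the lower side.

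Among all described genes past the filter, the 3 closest in course to each member were found by the same root mean square difference. Closest to P5CS1 were genes for a cytosolic phosphoglycerate kinase (Os06g0668200, 0.17), a 54 kDa signal recognition particle protein (Os05g0509500, 0.26) and a copper chaperone (Os02g0794600, 0.27). Around P5CS2 lay Os04g0564700 (0.10), a ubiquitin-specific protease gene (Os02g0506400, 0.15) and an expansin family gene (Os10g0542400, 0.23). For OAT the nearest were a pyruvate dehydrogenase E1 alpha subunit gene (Os04g0119400, 0.11), a glutathione S-transferase gene (Os01g0692100, 0.19) and a lipocalin gene (Os02g0612900, 0.20). ProDH was nearest to the glucose-6-phosphate dehydrogenase gene Os04g0485300 at 0.08, which was at 90.5, 47.3, 23.3 and 25.9 FPKM in total RNA, then to an F-box gene (Os02g0199600, 0.12) and a ResB-like gene (Os03g0769600, 0.12). P5CR had an actin-like gene (Os04g0177600, 0.06), a histone-fold gene (Os03g0852300, 0.07) and a Pti1 kinase-like gene (Os03g0844100, 0.08), and P5CDH a xylan endohydrolase gene (Os07g0456700), a ribosomal protein S2 gene (Os03g0807800) and a vacuolar ATPase assembly gene (Os04g0612900), each at 0.06.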

How the data were processed

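Deposited FPKM values, by transcript, came in a table for total RNA and another for mRNA, per the file headers. Further deposited columns are log2 values, which from their numbers are log2(FPKM + 1) after quantile normalization over a table's 4 libraries. The submitters' processing notes list StringTie 1.3.3b, HISAT2 2.0.5, Bowtie2 2.2.6, Trimmomatic 0.32, FastQC 0.10.0 and the IRGSP-1.0 build, without their roles. The strand-specific kits are per the labels' protocols. No source used here says how reads were divided between transcripts of a gene.

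FPKM was summed per gene, and ratios used 1 FPKM as pseudocount, which understates differences of low genes. Genes averaging under 1 FPKM in either table were left out, and the size rule a log2 ratio of 1 in both kinds. The calculation was tested on simulated data. The members and lists were chosen with earlier results of these data known. Symbols are from general knowledge, and 0 of 6 identifiers matched a RefSeq table of another assembly. Named were all members, the 2 genes of each list with the largest day 3 ratio past the filter and the 3 nearest genes per member, and genes outside this are said to be so. Genes described only as hypothetical, noncoding or unknown were left out of the nearest genes. Alternatives were pseudocounts of 0.1 and 5, no filter, a mean of 5 FPKM, median-ratio scaling, the deposited log2 values, each kind alone and the most abundant transcript alone. Calculations ran in Python 3.11.15 with scipy 1.17.1, numpy 2.4.6 and pandas 2.3.3.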

Additional observations from a re-analysis of the deposited data

Results flagged for a closer look

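At the level of single transcripts, the library kinds gave opposite directions for forms of P5CS2 and P5CR, and the difference was not tested, since each value is 1 library. For Os01t0848200-01 of P5CS2, the day 3 log2 ratio over well-watered was 3.14 in total RNA and -2.61 in mRNA. For Os01t0948400-01 of P5CR the day 1 ratios were -2.55 (total RNA, where it is listed at 0 FPKM) and 0.71 (mRNA), and those of day 2 were -0.074 and 1.09. The gene sums did not show these splits: P5CS2 had day 3 ratios of 3.12 and 2.43, and P5CR had day 1 ratios of 0.24 and 0.37, then -0.03 and 0.21.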

How the results depend on the processing

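Some alternatives had an outcome fixed in advance. No filter and a mean of 5 FPKM leave the ratio of a member unchanged. The most abundant transcript alone does the same for ProDH and P5CDH, which have 1 transcript each. Each kind alone cannot lose a call made in both kinds. With these included, of 162 member values under 9 alternatives (18 results by gene and day, mean of both kinds), 157 kept their call. The other 5 were ProDH on day 1, which was lower at -1.18 with median-ratio scaling and -1.33 with quantile-normalized values (1 member lower in place of 0), P5CDH on day 2, higher at 1.02 with a pseudocount of 0.1, and P5CS2 with its most abundant transcript alone, which turned to -2.13 on day 2 (2 members lower) and lost its day 3 call at 0.27. That form held 0.11% of P5CS2 FPKM in the day 3 mRNA library. The P5CS1 to ProDH ratio kept its sign with quantile-normalized values. It also did so with the most abundant transcript alone, but that setting could hardly change it. ProDH has 1 transcript, and the long P5CS1 form held 93.4% to 99.6% of P5CS1 FPKM. Pseudocounts and median-ratio scaling act alike on both genes of a library, so they could not change that sign. Over all genes, a pseudocount of 5 gave 648 higher and 239 lower on day 1, 1643 and 1187 on day 2 and 2450 lower on day 3, a mean of 5 FPKM gave 293 lower on day 1 and 2918 on day 3, and the day 1 lower count was 677 with median-ratio scaling and 765 with quantile-normalized values. Of the pathway list genes, 4 were higher on day 1 with a pseudocount of 5 and with median-ratio scaling, 2 were lower on day 1 under both other scalings, 8 were higher on day 2 with a pseudocount of 5 and with quantile-normalized values, and 13 were lower on day 3 with a pseudocount of 5. The day 3 median over all genes was 0.07 and 0.10 with median-ratio scaling and -0.15 and -0.12 with quantile-normalized values. No value has a replicate, so the spread between plants is unknown.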

Other observations

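Proline is also bound into and freed from proteins. Of 25 measured genes found by words for prolyl-tRNA synthesis, prolyl hydroxylation and proline-releasing peptidases, day 1 had 2 higher and 1 lower, day 2 had 4 higher and 3 lower, and day 3 had 4 higher and 8 lower, with day 3 medians of -0.61 in total RNA and -0.51 in mRNA. Any transcript description of a gene could match. The list thus holds Os02g0794700, also described as a leucine aminopeptidase and higher on days 1, 2 and 3. It also holds Os10g0415600, also described as noncoding and lower on day 3. Both were named after their values were seen. The background over all genes was 14.5% higher and 11.1% lower on day 2. For day 3 it was 18.2% higher and 25.9% lower, and the medians were -0.24 and -0.39, so the list's counts on days 2 and 3 lie near the background. With a pseudocount of 5, and with a mean of 5 FPKM, 4 were lower on day 3. The prolyl endopeptidase gene Os04g0561500, whose product cuts peptides after proline, was the 1 gene of these lower on day 1, with 4.06 FPKM on day 1 against 47.8 FPKM when watered in total RNA, and 3.80 against 50.2 FPKM in mRNA. It was at 0.69 and 0.67 FPKM on day 3. The prolyl 4-hydroxylase gene Os03g0761900, which modifies proline in wall proteins, was at 0.70, 2.88, 7.13 and 9.02 FPKM in total RNA and 0.62, 3.42, 6.67 and 9.20 FPKM in mRNA. Other genes so described, named after their values were seen, took other courses. The prolyl endopeptidase gene Os01g0108200 was not called on any day. Of the other prolyl 4-hydroxylase genes, Os05g0489100 was lower on day 3 (-1.27 and -1.54), and the rest were not called on any day.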
